A study of Homo sapiens with 6 samples.

Results

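Glycolysis and hypoxia response genes are the enzymes and transporters that turn glucose into lactate together with genes that cells switch on when oxygen is low. A list of 33 such genes was followed here by gene symbol, 33 of the 27434 gene rows in each library. 16 of them carry glucose uptake and the steps from glucose to pyruvate, 2 set the level of fructose-2,6-bisphosphate, 4 belong to the pyruvate and lactate branch, and 11 are hypoxia response genes including HIF1A. The libraries are from HT-29, a human colon adenocarcinoma cell line. Cells received a non-targeting siRNA pool (siNT), a pool against the lncRNA HOXA-AS3 (siHOXA-AS3) or a pool against the lncRNA HOXB-AS3 (siHOXB-AS3), each at 10 nM per the labels, and were collected after 48 h. The study's methods state another dose and another RNA extraction than the labels do. There were 2 RNA-seq libraries per condition, and nothing says that they came from separate cultures, so p-values measure only the spread between these samples, which may be technical. The siHOXA-AS3 and siHOXB-AS3 comparisons with siNT share the same 2 siNT libraries. All cells were the same line in serum-containing medium in a humidified incubator, and the labels describe no culture at low oxygen. The question addressed is whether the members' RNA differs when either lncRNA is knocked down.

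In glycolysis, glucose enters through a transporter, is phosphorylated by hexokinase, committed by phosphofructokinase, split by aldolase and oxidised to pyruvate, which lactate dehydrogenase can reduce to lactate. The oxygen-regulated factor HIF1 pairs HIF1A with ARNT and binds short DNA elements whose core is A or G followed by CGTG. When oxygen is present, prolyl hydroxylases of the EGLN family mark HIF1A protein for destruction, so HIF1A activity is set largely at the protein level, and many glycolytic genes are HIF1 targets. RNA-seq measures none of these protein steps.

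The core element was looked for in the members' promoters because it is the sequence that would link them to HIF1. RefSeq promoters (GRCh38.p14) were found for 30 of the 33 members, 57 promoters in all, and NDRG1, VEGFA and BNIP3L had no entry. Counts of the core letters cover each promoter's full sequence, which runs past the start into transcribed bases. The letters ACGTG, on either strand, occurred in 23 of the 57 member promoters, or 40.4%. The same letters occurred in 21.4% of all 35116 promoters and in 23.0% of the 22198 promoters of protein-coding genes. GCGTG occurred in 38.6% of the member promoters, in 36.5% of all promoters and in 43.0% of those of protein-coding genes. Some members have several promoters. Counted as genes with the letters in any promoter, ACGTG was in 63.3% of the 30 members and 28.5% of 15842 protein-coding genes, and GCGTG in 60.0% and 50.4%, so that for GCGTG the order against protein-coding genes turned with the way of counting. Shown here are the promoters of ALDOC and ADM, the members with the 2 largest positive differences between siHOXB-AS3 and siNT, of CA9, a widely used hypoxia marker, and of BNIP3, the member with no reads. Each is the 250 bases that end 1 base before the start, written 5′ to 3′ in the direction of its gene. Capitals mark ACGTG or GCGTG on the written strand or, as CACGT or CACGC, on the opposite one. Where ACGTG and its reverse overlap they appear as CACGTG. A match is a description of the letters only.
CA9, chr9:35673678-35673927, plus strand: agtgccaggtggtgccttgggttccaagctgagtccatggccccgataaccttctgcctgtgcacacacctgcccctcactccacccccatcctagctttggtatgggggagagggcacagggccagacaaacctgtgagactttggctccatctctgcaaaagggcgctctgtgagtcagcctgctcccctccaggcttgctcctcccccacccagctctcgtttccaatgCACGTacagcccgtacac
ALDOC, chr17:28576896-28577145, minus strand: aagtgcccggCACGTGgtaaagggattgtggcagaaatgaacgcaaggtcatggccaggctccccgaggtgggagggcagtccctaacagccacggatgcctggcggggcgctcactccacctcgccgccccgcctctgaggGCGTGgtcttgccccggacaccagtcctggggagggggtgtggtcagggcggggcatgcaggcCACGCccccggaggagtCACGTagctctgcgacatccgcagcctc
ADM, chr11:10304823-10305072, plus strand: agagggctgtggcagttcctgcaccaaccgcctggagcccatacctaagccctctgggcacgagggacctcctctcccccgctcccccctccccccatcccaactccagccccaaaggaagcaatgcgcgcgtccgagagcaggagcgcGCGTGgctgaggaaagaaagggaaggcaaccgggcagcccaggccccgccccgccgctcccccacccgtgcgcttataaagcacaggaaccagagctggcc
BNIP3, chr10:131981924-131982173, minus strand: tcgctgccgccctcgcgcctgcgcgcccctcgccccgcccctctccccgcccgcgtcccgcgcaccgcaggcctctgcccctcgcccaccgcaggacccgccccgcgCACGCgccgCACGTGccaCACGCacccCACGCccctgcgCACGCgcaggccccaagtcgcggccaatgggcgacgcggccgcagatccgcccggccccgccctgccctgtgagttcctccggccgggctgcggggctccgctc
CA9 held 1 ACGTG, on the opposite strand at -18 to -14 from the start. ALDOC held 3 ACGTG and 2 GCGTG, and both strands of one CACGTG at -240 to -235 count among the 3. ADM held 1 GCGTG, at -101 to -97. BNIP3 held 2 ACGTG, from one CACGTG, and 4 GCGTG.

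Before the comparisons, the libraries were checked. Total expected counts, RSEM's estimates of reads per gene, ranged from 15998518 to 26263938, and 13002 genes passed the count filter. HOXB-AS3 stood at 39.6 and 41.3 TPM (transcripts scaled to a fixed library total, a level per transcript length) in the siNT libraries and at 8.37 and 11.2 TPM in the siHOXB-AS3 libraries (edgeR log2 fold change -1.96, adjusted p = 0.0677). HOXA-AS3 was near the limit of detection, at 0.56 and 0.42 TPM in siNT and 0.19 and 0.28 TPM in siHOXA-AS3 (log2 fold change -1.09, adjusted p = 0.714). Of 8 colon epithelium markers, summing to between 5649 and 7900 TPM, CDX2 alone was under 1 TPM in all libraries (0.14 to 0.5 TPM). EPCAM was lower in the siHOXB-AS3 libraries (219 and 215 TPM) than in the siNT libraries (423 and 392 TPM), at an edgeR log2 fold change of -0.81 (adjusted p = 0.101), and lower than in siHOXA-AS3 by -0.82 (adjusted p = 0.0473). The 8 colon markers went both ways in siHOXB-AS3 against siNT, 2 higher and 6 lower with a median of -0.31, and 0 passed the edgeR test with all libraries. With only these 2 conditions fitted 3 passed, with the GC trend removed 2 and in DESeq2 1, all lower and EPCAM among them in each. The shares of all genes called in these fits were 23.3%, 14.0% and 2.81%. All 6 fibroblast markers together reached at most 0.21 TPM, and 5 of 7 blood and endothelial markers were under 1 TPM in all libraries, the sum of that list (1007 to 1763 TPM) being almost entirely LYZ. What part EPCAM or LYZ has in the members' values was not tested. In bulk RNA, fewer cells of a type and less RNA per cell cannot be told apart.

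The 2 siHOXA-AS3 libraries stood apart from each other. Over all genes tested, the SD of the log2 difference between replicates was 0.726 in siHOXA-AS3, 0.425 in siNT and 0.37 in siHOXB-AS3. Among the 32 members tested it was 0.592, 0.252 and 0.207 in the same order. 12 members differed by more than 1.5-fold between the siHOXA-AS3 replicates, against 1 in siNT and 1 in siHOXB-AS3. The difference followed the GC content of the transcripts. Across the members, which ran from 40.0% to 66.0% GC with a median of 55.3% (49.8% over all genes tested), Pearson's r between GC content and replicate difference was 0.871 in siHOXA-AS3, -0.59 in siNT and 0.107 in siHOXB-AS3 (n = 32 genes, which are not independent and share the same pair of libraries). 22 of 32 members were higher in siHOXA-AS3 replicate 1 than in replicate 2. Counts of called members are therefore also given from edgeR fitted to the 2 conditions compared alone and with the GC trend of each library removed, and the adjusted p values of single genes from these fits are given for the genes with the largest differences.

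**Figure D1:**
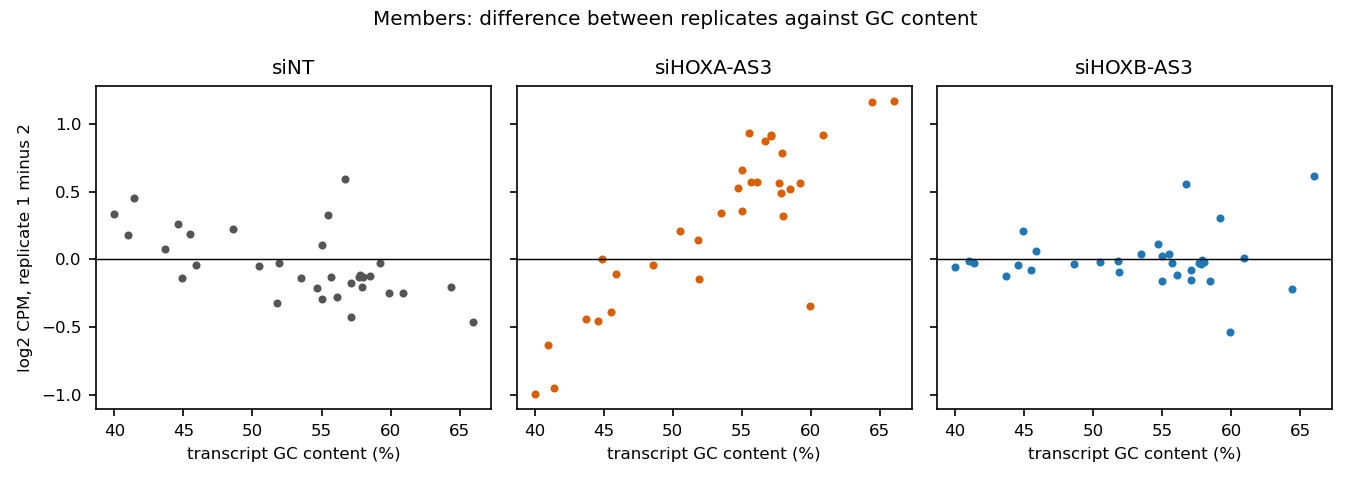
Difference between replicates 1 and 2 of each condition (log2 CPM, which is counts scaled to the library total) against the GC content of the transcript (%), 1 point per member, 32 members. In siHOXA-AS3 the points climb with GC content (r = 0.871), and in siHOXB-AS3 most lie near 0.

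The members spanned a wide range of levels. GAPDH, which oxidises glyceraldehyde-3-phosphate, was the highest, at 4990 and 5490 TPM in siNT, 6112 and 3777 TPM in siHOXA-AS3 and 4569 and 4608 TPM in siHOXB-AS3. It made up 43.7% to 51.7% of the members' summed TPM. Averaged over the 6 libraries, 10 members lay between 100 and 1000 TPM, 10 between 10 and 100 TPM, 9 between 1 and 10 TPM and 2 below 1 TPM (PFKFB4 and ANKRD37). The 10 highest members carried 93.6% to 95.2% of the members' TPM. All members together took 1.02% and 1.09% of a library's TPM in siNT, 1.18% and 0.864% in siHOXA-AS3 and 0.989% and 0.996% in siHOXB-AS3. The siHOXA-AS3 libraries were the highest and the lowest of the 6, and both siHOXB-AS3 libraries lay just under both siNT libraries.

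**Figure D2:**
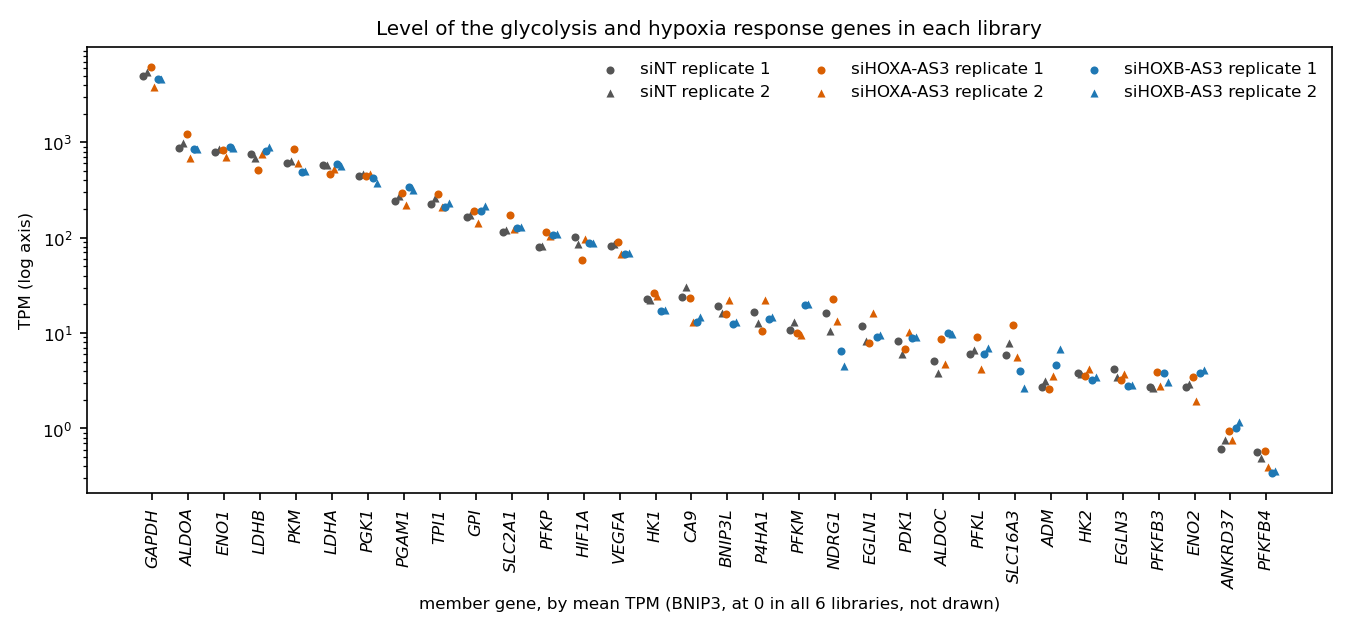
Level of 32 members in each of the 6 libraries (TPM, log axis), ordered by mean TPM, with circles for replicate 1 and triangles for replicate 2. GAPDH stands alone at 3777 to 6112 TPM, and BNIP3 had no reads and is not drawn.

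BNIP3, which takes part in the removal of mitochondria, was the member that did not pass the count filter. Its expected count was 0 in all 6 libraries. A limit of 3 counts corresponds to 0.114 CPM in the deepest library and 0.188 CPM in the shallowest, so a level under these limits would not have been detectable, and the limit covers counting error only. Its relative BNIP3L was counted in every library, at 12.4 to 22.3 TPM.

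In the comparison of siHOXA-AS3 with siNT, the members' differences were small. In the edgeR fit to all 6 libraries, 0 of 32 members passed an adjusted p of 0.05, as did 0% of the 13002 genes tested. At an unadjusted p under 0.05 there was 1 of 32 members, or 3.12%, against 6.16% of all genes. DESeq2 also called 0 members, against 0.393% of the genes to which it gave an adjusted p. The members' log2 fold changes ran from -0.57 (CA9) to 0.59 (ALDOC) with a median of 0.05, beside 0.01 over all genes tested, and 30 of 32 were smaller than 0.5 in size. Both siHOXA-AS3 libraries were above, or both below, the pair of siNT libraries for 5 members (15.6%), 2 higher and 3 lower, against 28.5% of all genes. Leaving out siHOXA-AS3 replicate 1 gave 9 called members against 30.3% of all genes, with a members' median of -0.06. Leaving out replicate 2 gave 10 called members against 17.8% of all genes, with a median of 0.22, the lone remaining library being assumed to vary like the other conditions.

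In the comparison of siHOXB-AS3 with siNT, a few members differed more while the median of the group stayed near that of all genes. In the same fit 0 of 32 members passed an adjusted p of 0.05, against 0.0615% of all genes (8 of 13002). At an unadjusted p under 0.05 there were 6 of 32 members (18.8%), against 12.1% of all genes. They were ALDOC, ADM, PFKM and PFKP on the higher side and NDRG1 and CA9 on the lower side. DESeq2 called 3 members, ALDOC and PFKM higher and NDRG1 lower, against 2.81% of the genes to which it gave an adjusted p. The log2 fold changes ran from -1.18 (NDRG1) to 1.24 (ALDOC), with a median of 0.04 beside -0.01 over all genes. The libraries of the 2 conditions did not overlap for 24 of 32 members, 14 higher and 10 lower, which is 75.0% against 61.8% of all genes.

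The call for siHOXB-AS3 depended on whether the siHOXA-AS3 libraries shared in the estimate of spread. When edgeR was fitted to the libraries of siNT and siHOXB-AS3 alone, 12 of 32 members (37.5%) passed an adjusted p of 0.05, against 23.3% of 12798 genes. 8 were higher (ALDOC, ADM, PFKM, ENO2, PFKP, PGAM1, LDHB and GPI) and 4 lower (NDRG1, SLC16A3, CA9 and BNIP3L). With all 6 libraries and the GC trend of each removed, 11 of 32 (34.4%) passed against 14.0% of all genes. That set held SLC2A1 and lacked ENO2 and LDHB, and was otherwise the same. In that GC-corrected fit siHOXA-AS3 against siNT gave 2 called members, PFKP and SLC2A1, both higher, against 3.99% of all genes. The log2 fold changes themselves moved little, the siHOXB-AS3 median staying between 0.03 and 0.06 in these fits. Leaving out siHOXA-AS3 replicate 1 or replicate 2 alone gave 11 and 12 called members in siHOXB-AS3, against 22.7% and 22.6% of all genes. Fitted to siNT and siHOXA-AS3 alone, edgeR called 0 members and 0% of 12758 genes.

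**Figure D3:**
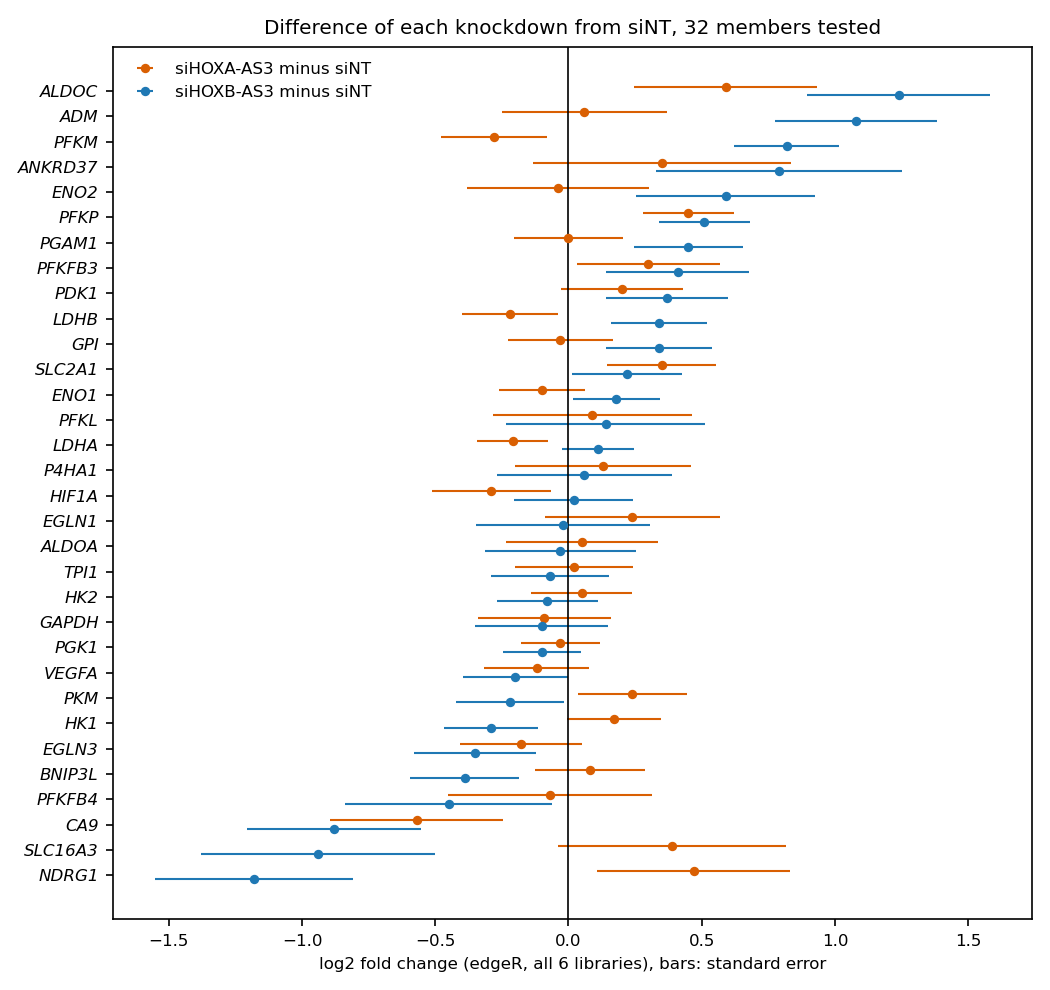
Log2 fold change of each knockdown against siNT for the 32 members tested (edgeR, all 6 libraries, bars are standard errors), ordered by the siHOXB-AS3 value. ALDOC, ADM and NDRG1 lie more than 1 from 0 in siHOXB-AS3, and no member does so in siHOXA-AS3.

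Glucose uptake and hexokinases come first in the pathway. SLC2A1, the main basal glucose transporter GLUT1, was at 114 and 119 TPM in siNT, 173 and 124 TPM in siHOXA-AS3 and 126 and 129 TPM in siHOXB-AS3. All 4 knockdown libraries lay above both siNT libraries on this TPM scale, siHOXA-AS3 replicate 1 by the most. On the log2 CPM scale, SLC2A1 in siHOXA-AS3 replicate 2 (0.038 from the siNT mean) was below siNT replicate 2 (0.064). Its log2 fold change was 0.35 ± 0.205 (SE) for siHOXA-AS3 (edgeR adjusted p = 0.92) and 0.22 ± 0.205 for siHOXB-AS3 (adjusted p = 0.739). With the GC trend removed these became 0.39 (adjusted p = 0.0471) and 0.33 (adjusted p = 0.0431). SLC2A1 is named for this after its values were seen.

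HK1, the broadly expressed hexokinase, was at 22.7 and 22.5 TPM in siNT, 26.6 and 24.5 TPM in siHOXA-AS3 and 17.1 and 17.6 TPM in siHOXB-AS3. HK2, the isozyme more linked to tumours and hypoxia, was at 3.77 and 3.68 TPM in siNT, 3.57 and 4.19 TPM in siHOXA-AS3 and 3.19 and 3.44 TPM in siHOXB-AS3. Both HK1 libraries were above siNT in siHOXA-AS3 and below it in siHOXB-AS3. Such non-overlap held for 28.5% and 61.8% of all genes. The log2 fold changes of HK1 were 0.17 ± 0.176 (SE, edgeR adjusted p = 0.99) and -0.29 ± 0.176 (adjusted p = 0.579). The HK2 libraries of siHOXA-AS3 lay on either side of siNT. HK2 thus gave 14.1% ± 0.12 (SD, n = 2) of the TPM of both isozymes in siNT, 13.2% ± 1.97 in siHOXA-AS3 and 16% ± 0.482 in siHOXB-AS3. With 2 libraries against 2 the exact permutation test, two-sided, cannot give a p under 0.333, and the siHOXB-AS3 difference of 1.89 points was at that floor.

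Phosphofructokinase, the committed step, has 3 isozymes, whose values differed from each other. PFKP, the platelet-type subunit and the main one here, was at 79.5 and 82.0 TPM in siNT, 116 and 104 TPM in siHOXA-AS3 and 106 and 108 TPM in siHOXB-AS3. Every knockdown library was above both siNT libraries. Its log2 fold change was 0.45 ± 0.171 (SE) for siHOXA-AS3 (edgeR adjusted p = 0.737) and 0.51 ± 0.171 for siHOXB-AS3 (adjusted p = 0.293). After GC correction PFKP was the member called in both comparisons with the larger difference, 0.52 (adjusted p = 0.0352) and 0.61 (adjusted p = 0.008), and with only siNT and siHOXB-AS3 fitted the adjusted p for siHOXB-AS3 was 0.000515.

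PFKM, the muscle-type subunit, was at 10.8 and 13.0 TPM in siNT, 10.0 and 9.64 TPM in siHOXA-AS3 and 19.6 and 20 TPM in siHOXB-AS3. The siHOXB-AS3 libraries were far above all others and the siHOXA-AS3 libraries below both siNT libraries. PFKM had the lowest p of any member against siNT, with a log2 fold change of 0.82 ± 0.197 (SE) in siHOXB-AS3, or 1.77-fold (edgeR adjusted p = 0.164, and adjusted p = 0.0342 in DESeq2). The adjusted p was 9.79e-05 with only siNT and siHOXB-AS3 in the edgeR fit and 0.00289 after GC correction. The siHOXA-AS3 value was -0.28 ± 0.198 (edgeR adjusted p = 0.964). Between the knockdowns PFKM differed by 1.10 ± 0.199, with an adjusted p of 0.0519.

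PFKL, the liver-type subunit, was at 6.04 and 6.61 TPM in siNT, 9.04 and 4.24 TPM in siHOXA-AS3 and 6.01 and 7.05 TPM in siHOXB-AS3. At 64.4% GC it was among the members that differed most between the siHOXA-AS3 replicates. PFKP made up 81.6% ± 1.25 (SD, n = 2) of the phosphofructokinase TPM in siNT, 87.0% ± 1.68 in siHOXA-AS3 and 80.2% ± 0.383 in siHOXB-AS3. PFKM made up 12.0% ± 1.09, 7.8% ± 0.516 and 14.9% ± 0.0753 in the same order. The PFKM shares of the 3 conditions did not overlap, siHOXA-AS3 lowest and siHOXB-AS3 highest, each against siNT at the floor of the exact permutation test (p = 0.333). The PFKP shares did not overlap either, siHOXB-AS3 lowest (80.5% and 80.0%, against 82.5% and 80.7% in siNT), and were at the same floor.

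Aldolase splits fructose-1,6-bisphosphate. ALDOA, the main isozyme, was at 865 and 984 TPM in siNT, 1228 and 692 TPM in siHOXA-AS3 and 848 and 850 TPM in siHOXB-AS3. ALDOC, whose promoter with 5 core motifs is shown above, was at 5.06 and 3.85 TPM in siNT, 8.59 and 4.74 TPM in siHOXA-AS3 and 10.0 and 9.78 TPM in siHOXB-AS3. Both siHOXB-AS3 libraries were above all others for ALDOC, whereas siHOXA-AS3 replicate 2 lay between the siNT libraries.

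ALDOC had the largest positive difference among the members in siHOXB-AS3, 1.24 ± 0.343 (SE) on the log2 scale or 2.36-fold (edgeR adjusted p = 0.217, and 0.0348 in DESeq2). With only siNT and siHOXB-AS3 fitted the edgeR adjusted p was 0.000105, and after GC correction 0.00621. In siHOXA-AS3 it was 0.59 ± 0.344 (adjusted p = 0.92). ALDOC remained a small part of aldolase RNA, 0.486% ± 0.136 (SD, n = 2) of the 2 isozymes' TPM in siNT, 0.688% ± 0.0103 in siHOXA-AS3 and 1.15% ± 0.021 in siHOXB-AS3. Here the 3 conditions did not overlap, and both differences from siNT were at the floor of the exact permutation test (p = 0.333).

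Among the other enzymes of glycolysis, the abundant ones had log2 fold changes against siNT of at most 0.45 in size with all libraries. ENO1, the main enolase, was at 800 and 842 TPM in siNT, 834 and 700 TPM in siHOXA-AS3 and 885 and 865 TPM in siHOXB-AS3. PKM, the pyruvate kinase that makes pyruvate, was at 605 and 632 TPM in siNT, 849 and 610 TPM in siHOXA-AS3 and 491 and 505 TPM in siHOXB-AS3. ENO2, the neuron-type enolase, was at 2.69 and 2.91 TPM in siNT, 3.46 and 1.92 TPM in siHOXA-AS3 and 3.81 and 4.06 TPM in siHOXB-AS3.
For ENO1, PKM and ENO2 the siHOXB-AS3 libraries lay outside the siNT range, lower for PKM, and none passed the edgeR test with all libraries (adjusted p = 0.722, 0.735 and 0.56). ENO2 made up 0.34% ± 0.00661 (SD, n = 2) of enolase TPM in siNT, 0.343% ± 0.0988 in siHOXA-AS3 and 0.448% ± 0.0271 in siHOXB-AS3. GAPDH had a log2 fold change of -0.09 ± 0.25 (SE) in siHOXA-AS3 and -0.10 ± 0.25 in siHOXB-AS3. The remaining enzymes, GPI, TPI1, PGK1 and PGAM1, had log2 fold changes against siNT from -0.10 (PGK1 in siHOXB-AS3) to 0.45 (PGAM1 in siHOXB-AS3). In siHOXB-AS3, PGAM1 and GPI passed with only siNT and siHOXB-AS3 fitted and after GC correction (edgeR adjusted p = 0.00947 and 0.0256 after GC correction). TPI1 and PGK1 passed in neither fit. GAPDH, PGK1, PGAM1, TPI1, LDHA, LDHB, ALDOA, ENO1 and PKM have processed pseudogenes or near copies that can share reads, so their counts are uncertain as far as RSEM divided such reads.

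**Figure D4:**
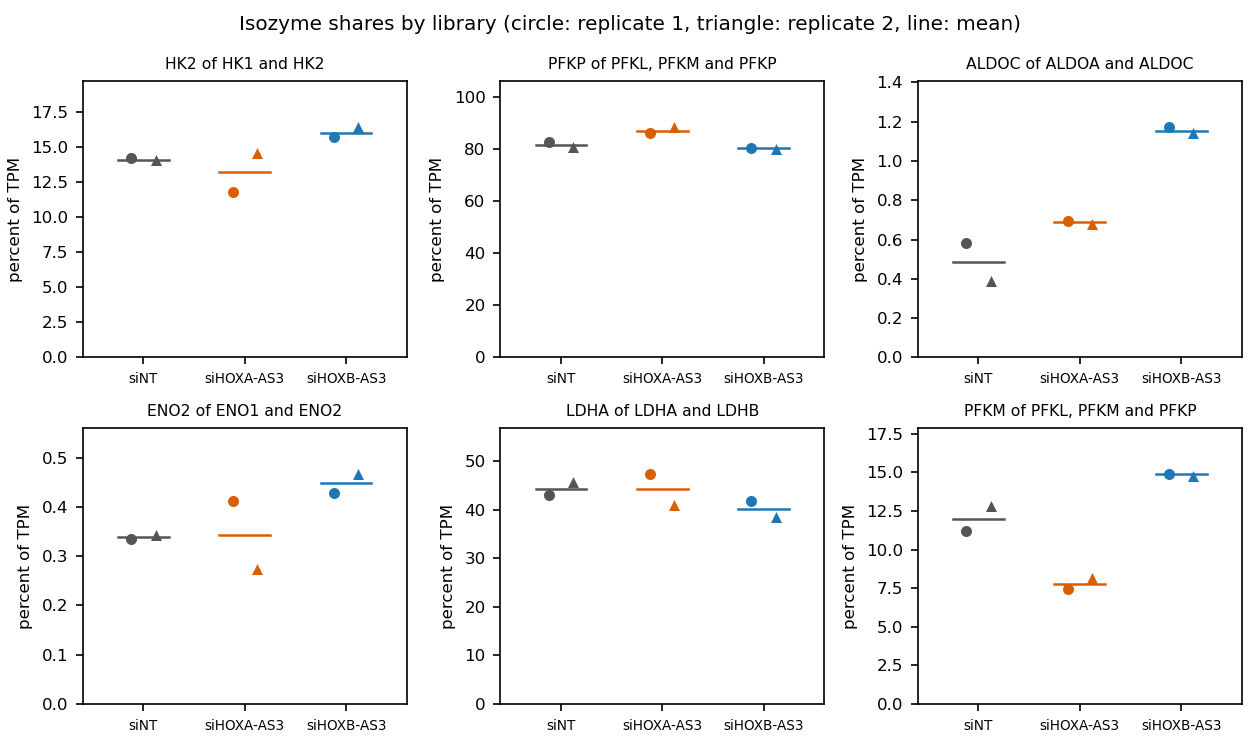
Share of an isozyme in its family (percent of the family's summed TPM) in each library, with circles for replicate 1, triangles for replicate 2 and a line at the mean of 2. For the PFKP, ALDOC and PFKM shares the 3 conditions do not overlap, with means of 80.2%, 1.15% and 14.9% in siHOXB-AS3.

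The fructose-2,6-bisphosphate enzymes set the level of an allosteric activator of phosphofructokinase. PFKFB3 ranged from 2.68 to 3.89 TPM and PFKFB4 from 0.34 to 0.58 TPM over the 6 libraries. Their log2 fold changes in siHOXB-AS3 were 0.41 ± 0.268 (SE) and -0.45 ± 0.389, and neither passed the test in either comparison.

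In the lactate branch, LDHA and LDHB encode the lactate dehydrogenase subunits. LDHA was at 571 and 578 TPM in siNT, 463 and 521 TPM in siHOXA-AS3 and 589 and 563 TPM in siHOXB-AS3. LDHB was at 756 and 687 TPM in siNT, 513 and 745 TPM in siHOXA-AS3 and 818 and 897 TPM in siHOXB-AS3. LDHB was highest in both siHOXB-AS3 libraries, whereas LDHA lay on both sides of siNT there.

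LDHB had a log2 fold change of 0.34 ± 0.181 (SE) in siHOXB-AS3 (edgeR adjusted p = 0.527), and 0.34 ± 0.0876 with adjusted p = 0.00761 where only siNT and siHOXB-AS3 were fitted. LDHA made up 44.4% ± 1.9 (SD, n = 2) of the pair's TPM in siNT, 44.3% ± 4.44 in siHOXA-AS3 and 40.2% ± 2.33 in siHOXB-AS3. The siHOXB-AS3 share was lower by 4.14 points, at the floor of the exact permutation test (p = 0.333). PDK1, which limits the oxidation of pyruvate by inhibiting pyruvate dehydrogenase, ranged from 6.0 to 10.2 TPM and had a log2 fold change of 0.37 ± 0.228 in siHOXB-AS3.

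SLC16A3, the lactate exporter MCT4, is named here after its values were seen. It was at 5.94 and 7.85 TPM in siNT, 12.2 and 5.64 TPM in siHOXA-AS3 and 4.01 and 2.67 TPM in siHOXB-AS3. Both siHOXB-AS3 libraries were the lowest of the 6, and at 66.0% GC, the highest of the members, it also had the largest difference between the siHOXA-AS3 replicates. Its log2 fold change was -0.94 ± 0.439 (SE) for siHOXB-AS3 (edgeR adjusted p = 0.471), -0.93 with adjusted p = 0.00613 with only the 2 conditions fitted, and -0.77 with adjusted p = 0.0457 after GC correction.

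The hypoxia response genes had differences of both signs in siHOXB-AS3. HIF1A itself was at 101 and 85.2 TPM in siNT, 58.1 and 96.4 TPM in siHOXA-AS3 and 87.4 and 89.0 TPM in siHOXB-AS3. Both siHOXB-AS3 libraries lay between the siNT libraries, and siHOXA-AS3 replicate 1 was the lowest of the 6. The log2 fold change of HIF1A was 0.02 ± 0.223 (SE) in siHOXB-AS3 (edgeR adjusted p = 0.99) and -0.29 ± 0.223 in siHOXA-AS3 (adjusted p = 0.975). The siHOXB-AS3 value turned to -0.03 with the GC trend removed or with library totals as the scale. With the GC trend removed the siHOXA-AS3 value was -0.37 ± 0.0883 (edgeR adjusted p = 0.0537). Between the knockdowns HIF1A differed by 0.30 with all libraries (edgeR adjusted p = 0.531) and by 0.34 after GC correction (adjusted p = 0.0211).

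NDRG1, a stress and hypoxia induced gene tied to differentiation, was at 16.1 and 10.6 TPM in siNT, 23.0 and 13.4 TPM in siHOXA-AS3 and 6.55 and 4.51 TPM in siHOXB-AS3. Both siHOXB-AS3 libraries were below all others. NDRG1 had the largest negative difference of the members, -1.18 ± 0.372 (SE) on the log2 scale or 2.26-fold lower than siNT (edgeR adjusted p = 0.273, and 0.0292 in DESeq2). It was called in edgeR with only siNT and siHOXB-AS3 fitted (adjusted p = 0.000529) and after GC correction (adjusted p = 0.037). For siHOXA-AS3 the value was 0.47 ± 0.363 (adjusted p = 0.975), and with replicate 1 left out it became -0.05, with replicate 2 left out 0.84.

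CA9, a membrane carbonic anhydrase and a standard marker of HIF1 activity, was at 23.8 and 30.6 TPM in siNT, 23.3 and 13.2 TPM in siHOXA-AS3 and 13.1 and 14.7 TPM in siHOXB-AS3. On the TPM scale all 4 knockdown libraries lay under both siNT libraries, siHOXA-AS3 replicate 1 by the least. On the log2 CPM scale, CA9 in siHOXA-AS3 replicate 1 (-0.178 from the siNT mean) was above siNT replicate 1 (-0.212). Its log2 fold change was -0.88 ± 0.328 (SE) in siHOXB-AS3 (edgeR adjusted p = 0.342) and -0.57 ± 0.326 in siHOXA-AS3 (adjusted p = 0.912). In siHOXB-AS3 the edgeR adjusted p was 0.00028 with only siNT and siHOXB-AS3 fitted and 0.0183 after GC correction. The siHOXA-AS3 value was -1.10 without siHOXA-AS3 replicate 1 (adjusted p = 0.000399) and -0.18 without replicate 2 (adjusted p = 0.544).

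ADM, which encodes the vasodilator peptide adrenomedullin, was at 2.73 and 3.11 TPM in siNT, 2.61 and 3.56 TPM in siHOXA-AS3 and 4.68 and 6.88 TPM in siHOXB-AS3. Its difference had the opposite sign to those of CA9 and NDRG1, with both siHOXB-AS3 libraries above all others. The log2 fold change was 1.08 ± 0.303 (SE), or 2.11-fold (edgeR adjusted p = 0.22), and 0.06 ± 0.311 in siHOXA-AS3 (adjusted p = 0.998). For siHOXB-AS3 the adjusted p became 0.00328 when edgeR was fitted to these 2 conditions alone and 0.0493 after GC correction.

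The other hypoxia members had smaller differences in siHOXB-AS3. VEGFA, the angiogenic growth factor, ranged from 66.8 to 89.4 TPM over the 6 libraries, with a log2 fold change of -0.20 ± 0.197 (SE). BNIP3L, a receptor for the removal of mitochondria, had -0.39 ± 0.206 (edgeR adjusted p = 0.524, 0.0245 with only the 2 conditions fitted and 0.0383 after GC correction). The oxygen-sensing hydroxylases EGLN1 and EGLN3 had -0.02 ± 0.327 and -0.35 ± 0.229, the collagen hydroxylase subunit P4HA1 had 0.06 ± 0.33, and the ankyrin repeat gene ANKRD37, at 0.61 to 1.16 TPM, had 0.79 ± 0.463. None of these passed the test with all libraries, and BNIP3L alone among them passed the other 2 edgeR fits.

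**Figure D5:**
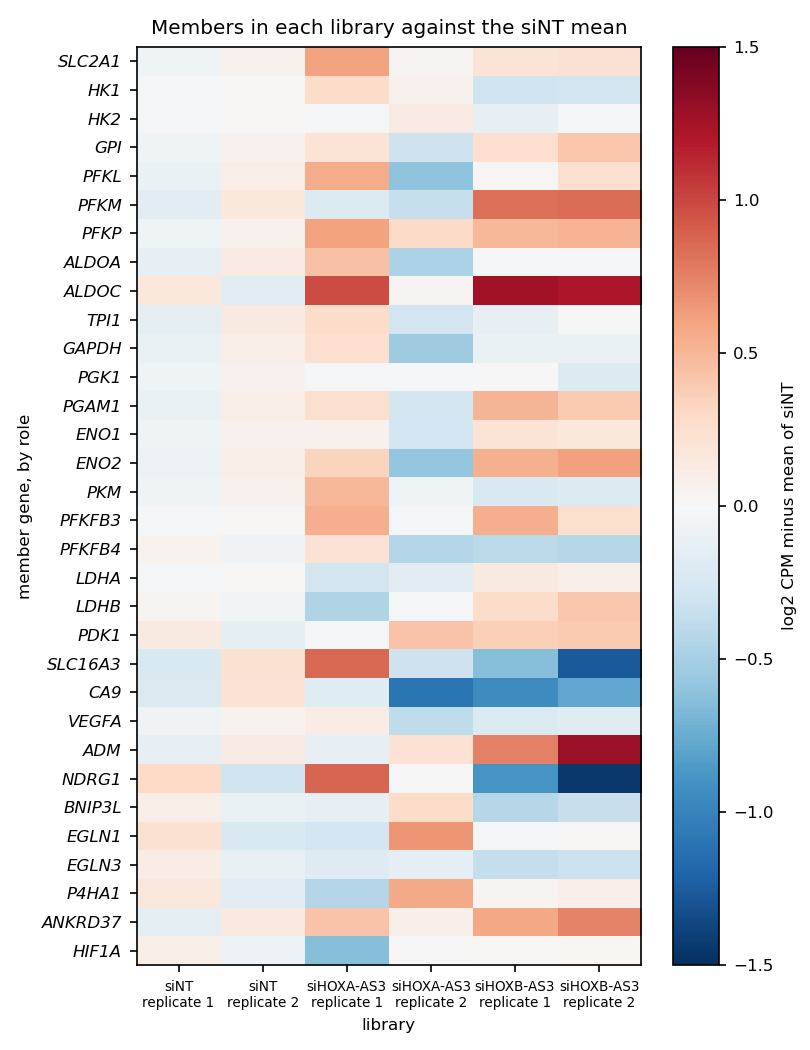
Each member's log2 CPM minus the mean of the siNT libraries, in each of the 6 libraries (rows by role, red higher, blue lower). The siHOXB-AS3 replicates have like colours for ALDOC, PFKM and CA9. For ADM (0.76 and 1.299) and NDRG1 (-0.886 and -1.444) they share the sign but differ in size. The siHOXA-AS3 replicates differ for many members.

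Between the knockdowns, siHOXB-AS3 against siHOXA-AS3, 0 of 32 members passed an adjusted p of 0.05 in the edgeR fit, against 1.54% of all genes (200 of 13002). At an unadjusted p under 0.05 there were 7 of 32 members (21.9%), 4 higher and 3 lower, against 18.4% of all genes, and DESeq2 called 3 members, PFKM higher and NDRG1 and SLC16A3 lower, against 6.15% of the genes to which it gave an adjusted p. The largest difference was that of NDRG1, -1.65 ± 0.375 (SE) on the log2 scale (edgeR adjusted p = 0.0894). ADM differed by 1.02 ± 0.303 (adjusted p = 0.148). With the GC trend removed 14 of 32 members (43.8%) were called, against 26.1% of all genes. Without siHOXA-AS3 replicate 1 or replicate 2 there were 17 and 16 called members, against 37.9% and 36.0% of all genes. Fitted to the libraries of both knockdowns alone, edgeR called 0 members and 0.0156% of 12782 genes.

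Other genes of the same pathways were read from fixed lists in the edgeR fit to all libraries, and none passed an adjusted p of 0.05 against siNT in either comparison. Of 24 other HIF target genes, 19 were tested, and 3 in each comparison (15.8%) had an unadjusted p under 0.05, against 6.16% of all genes in siHOXA-AS3 and 12.1% in siHOXB-AS3. With only siNT and siHOXB-AS3 fitted 6 of the 19 (31.6%) passed, 3 higher and 3 lower, against 23.3% of all genes. With the GC trend removed 3 (15.8%) passed, 1 higher and 2 lower, against 14.0% of all genes. For siHOXA-AS3 these fits gave 0 and 2 of the 19, against 0% and 3.99% of all genes. CA12, a carbonic anhydrase related to CA9, was at 18.8 and 18 TPM in siNT, 14.1 and 12.9 TPM in siHOXA-AS3 and 6.21 and 4.76 TPM in siHOXB-AS3. Both siHOXB-AS3 libraries were below all others, with a log2 fold change of -1.67 ± 0.212 (SE), or 3.19-fold lower than siNT (edgeR adjusted p = 0.0689, 2.7e-08 with only the 2 conditions fitted and 0.00037 after GC correction).

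BHLHE40, a transcriptional repressor, was at 8.5 and 7.02 TPM in siNT, 13.1 and 12.4 TPM in siHOXA-AS3 and 15.1 and 15.9 TPM in siHOXB-AS3. All 4 knockdown libraries were above siNT, with log2 fold changes of 0.72 ± 0.193 (SE, edgeR adjusted p = 0.579) and 1.09 ± 0.194 (adjusted p = 0.101). After GC correction the adjusted p values were 0.0189 and 0.00142, and with only siNT and siHOXB-AS3 fitted that of siHOXB-AS3 was 6.79e-06. ZNF395 had a log2 fold change of -1.06 ± 0.23 in siHOXA-AS3 (edgeR adjusted p = 0.483, and 0.00758 after GC correction) and -0.17 ± 0.225 in siHOXB-AS3. Between the knockdowns 2 of the 19 passed the edgeR test with all libraries, against 1.54% of all genes. They were CA12, at a log2 fold change of -1.22 (adjusted p = 0.0478), and VLDLR, the very low density lipoprotein receptor and named after its values were seen, at -1.36 (adjusted p = 0.039). With only the libraries of both knockdowns fitted neither passed (edgeR adjusted p = 0.169 and 0.142, 0 of the 19), against 0.0156% of all genes. With the GC trend removed 4 of the 19 (21.1%) passed, against 26.1% of all genes.

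Of 15 HIF subunits and regulators, 12 were tested, and an unadjusted p under 0.05 against siNT was reached by none in siHOXA-AS3 and by 1 in siHOXB-AS3, the chaperone HSP90AB1 (log2 fold change 0.36 ± 0.146 SE, edgeR adjusted p = 0.39). With only siNT and siHOXB-AS3 fitted 4 of the 12 (33.3%) passed, HSP90AB1 with an edgeR adjusted p of 0.0079, against 23.3% of all genes. With the GC trend removed 2 (16.7%) passed, HSP90AB1 with 0.043, against 14.0% of all genes. Of 20 other glycolytic isozymes and regulators, 9 were tested. 5 of these had an unadjusted p under 0.05 in siHOXB-AS3, 3 higher and 2 lower, against 12.1% of all genes, among them the glucose transporter SLC2A12 (-1.29 ± 0.231, adjusted p = 0.101) and the glycogen enzyme PGM1 (-0.89 ± 0.211, adjusted p = 0.163). The count of called genes among the 9 was also 5 (55.6%) with only siNT and siHOXB-AS3 fitted and 5 with the GC trend removed. The shares of all genes called were 23.3% and 14.0%. SLC2A12 (edgeR adjusted p = 0.000118 and 0.00685) and PGM1 (0.000121 and 0.00725) were among the 5 in each. In siHOXA-AS3 no gene of these last 2 lists reached an unadjusted p under 0.05, nor did any pass in the other 2 edgeR fits.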

How the data were processed

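RNA-seq libraries (SENSE mRNA-Seq kit, Lexogen) of HT-29 cells were analysed, 2 for each of 3 siRNA conditions taken from the labels. The authors quantified them with RSEM on RefSeq genes and deposited, for each library, expected counts (estimated reads per gene, not normalized), TPM and FPKM, and FPKM was not used here. The submitters' processing notes name hg19, while the RSEM version, aligner and strand setting were not given in the sources used here. Whether reads of overlapping or antisense genes were kept apart is therefore not known. 193 rows without a symbol (at most 0.0474% of the counts) were left out, and 627 rows join several genes.

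Expected counts were rounded and tested in R 4.3.3 with edgeR 4.0.16 (filterByExpr with a minimum count of 10, TMM, robust quasi-likelihood test over all 6 libraries, Benjamini-Hochberg adjustment over 13002 genes, threshold 0.05). Rounding and filtering affect low genes most. DESeq2 1.42.0, other scalings, no filter (at least 1 count), only the groups compared, replicate blocks and each library left out were alternatives, and removal of a loess trend on GC content (GENCODE v29 transcripts, available for 97% of genes) and a crossed block were added after the data were seen. Levels between genes were compared as TPM. The calling step was tested on simulated data without a GC trend, whose changed genes differed by more than any member did. That test cannot show how often differences of the members' size are called. No 2 libraries agreed within sampling noise (smallest chi-square per degree of freedom 6.77).

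Members and gene lists were chosen with earlier results of these data known. Values in every library are given for members with an unadjusted p under 0.05 against siNT, the 5 highest by TPM, the isozymes and HIF1A, and in other lists at most 2 genes per comparison with the lowest p are named, of which 1 gene is not reported here. EGLN2 was present only in a joined row. Promoter sequences are from RefSeq (GRCh38.p14).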

Additional observations from a re-analysis of the deposited data

Results flagged for a closer look

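CA12, a membrane carbonic anhydrase from the list of other HIF target genes, differed between the knockdowns by a test of the difference itself. It was at 14.1 and 12.9 TPM in siHOXA-AS3 and at 6.21 and 4.76 TPM in siHOXB-AS3, a log2 fold change of -1.22 ± 0.21 (SE) with an edgeR adjusted p of 0.0478 in the fit to all libraries. This is close to the threshold of 0.05. With only the libraries of both knockdowns fitted the edgeR adjusted p was 0.169, and it was 0.000641 with the GC trend removed and 0.000126 in DESeq2. The siNT libraries, at 18.8 and 18 TPM, were above all 4. No member of the glycolysis and hypoxia response genes differed between the knockdowns at that threshold in the same fit, the nearest being PFKM (adjusted p = 0.0519).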

How the results depend on the processing

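Counts of genes called are given in the order siHOXA-AS3 against siNT, siHOXB-AS3 against siNT, and siHOXB-AS3 against siHOXA-AS3, from 0, 8 and 200 in the edgeR fit to all libraries. They were 49, 332 and 768 in DESeq2, 24, 253 and 701 with no filter, 0, 2984 and 2 with only the groups compared, and 519, 1817 and 3397 with the GC trend removed. Other scalings of the libraries left each within 1.5 times. Members called, 0 in each comparison, became 0, 3 and 3 in DESeq2, 0, 0 and 3 with no filter, 0, 0 and 1 with RLE size factors, 0, 12 and 0 with only the groups compared, and 2, 11 and 14 with the GC trend removed. Over fits that left out 1 library each, genes called ran from 0 to 4022, 0 to 3025 and 0 to 5026, members called from 0 to 10, 0 to 12 and 0 to 17, and the members' median log2 fold change from -0.06 to 0.22, 0.02 to 0.09 and -0.09 to 0.23. The highest counts all came from leaving out a siHOXA-AS3 library, and leaving out a siHOXB-AS3 library gave 0 calls of any gene. Leaving out siNT replicate 1 gave 0, 0 and 15 genes called, and leaving out siNT replicate 2 gave 1, 1 and 16. The cause was not tested.

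Same-numbered replicates did not deviate together across genes. The correlations of replicate differences were -0.347 for siNT with siHOXA-AS3, -0.141 for siNT with siHOXB-AS3 and 0.151 for siHOXA-AS3 with siHOXB-AS3. Over all genes these differences followed GC content (Pearson's r 0.764 in siHOXA-AS3, -0.423 in siNT and 0.154 in siHOXB-AS3). The correlations were not taken with the GC trend removed, so they cannot show whether the samples were paired. Replicate 1 had the higher total expected count in each condition. The edgeR fit to all libraries did not pair the samples by number. With the replicate block, 0, 0 and 10 genes and 0, 0 and 0 members were called, and with the replicate block and the GC trend removed 297, 1310 and 2873 genes and 0, 8 and 13 members. The crossed replicate block, chosen after seeing the data, called 14, 225 and 754 genes and 0, 0 and 3 members.

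For ADM in siHOXA-AS3 the log2 fold change of 0.06 became -0.07 without siNT replicate 1 and -0.11 without siHOXA-AS3 replicate 2, reaching 0.23 without siHOXA-AS3 replicate 1, and for NDRG1 in siHOXA-AS3 it ran from -0.05 (without siHOXA-AS3 replicate 1) to 0.84 (without siHOXA-AS3 replicate 2, where it was called). For HIF1A in siHOXB-AS3 it became -0.03 with library totals, with the GC trend removed and with the replicate block and the GC trend removed, and over fits without 1 library ran from -0.07 (without siNT replicate 2) to 0.11. Among isozyme shares in siHOXA-AS3, the HK2 difference ran from -2.33 to 0.458 points over fits without 1 library (0.458 without siHOXA-AS3 replicate 1) and that of ENO2 from -0.0661 to 0.0736 points (-0.0661 without siHOXA-AS3 replicate 1 and -0.000939 without siNT replicate 1). That of LDHA ran from -3.22 to 3.06 points (3.06 without siHOXA-AS3 replicate 2 and 1.26 without siNT replicate 2) and was 0.31 points from expected counts. The shares in siHOXB-AS3 and the PFKP and ALDOC shares in siHOXA-AS3 kept their sign in every alternative run for them. PFKFB4, ANKRD37 and BNIP3 had the lowest counts of the members, and what part depth has in this was not tested.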

Other observations

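Branches beside glycolysis were read from fixed lists in the edgeR fit to all libraries, and no gene of them passed an adjusted p of 0.05 in any comparison in that fit. All 9 genes of the pentose phosphate pathway, which makes NADPH and ribose, were tested, and their median log2 fold change was 0.04 in siHOXA-AS3 and -0.09 in siHOXB-AS3. PRPS1 and PRPS2 make the ribose donor for nucleotides. PRPS1 was at 19.2 and 19.1 TPM in siNT, 15.5 and 14.1 TPM in siHOXA-AS3 and 24.7 and 31.4 TPM in siHOXB-AS3, with a log2 fold change of 0.64 ± 0.204 in siHOXB-AS3 (edgeR adjusted p = 0.27, 0.00135 with only siNT and siHOXB-AS3 fitted and 0.0207 with the GC trend removed). Both siHOXB-AS3 libraries were above and both siHOXA-AS3 libraries below siNT for PRPS1. PRPS2 differed by 0.60 ± 0.213 there (edgeR adjusted p = 0.316, and 0.0101 and 0.0252 in the same 2 fits). With only siNT and siHOXB-AS3 fitted 5 of the 9 genes (55.6%) passed, 2 higher and 3 lower, against 23.3% of all genes. With the GC trend removed 2 (22.2%) passed, both higher, against 14.0% of all genes. For siHOXA-AS3 these fits gave 0 and 1 of the 9, against 0% and 3.99% of all genes.

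Of 16 genes of pyruvate oxidation and transport 14 were tested, with median log2 fold changes of 0.11 in siHOXA-AS3 and -0.05 in siHOXB-AS3. Of 7 gluconeogenesis genes 4 were tested, with medians of 0.19 and -0.29. In neither list did a gene reach an unadjusted p under 0.05 against siNT in the edgeR fit to all libraries, and DESeq2 called none. With only siNT and siHOXB-AS3 fitted 3 of the 14 (21.4%) and 1 of the 4 (25.0%) passed, all lower, against 23.3% of all genes. With the GC trend removed 1 of the 14 (7.14%) and 0 of the 4 passed, against 14.0% of all genes. For siHOXA-AS3 none passed in these fits.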
